A study of Mus musculus with 4 samples.

Results

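The array held 10 genes of the FGF, HGF, IGF, EGF and PDGF families, chosen by gene symbol from its 84 genes of interest. They were 8 ligand genes, *Fgf1*, *Fgf2*, *Fgf6*, *Hgf*, *Igf1*, *Egf*, *Tgfa* and *Pdgfa*, and 2 receptor genes, *Fgfr3* and *Erbb2*. All 10 had a ratio in both runs. Transcripts were measured by SYBR Green RT-qPCR on a mouse angiogenesis array in ischemic adductor and gastrocnemius muscle of male and female FVB mice (FVB/NJ in the methods, 10 to 12 weeks old), 21 days after surgery on the femoral vessels. The treated group received E-sel/AAV2/2, an adeno-associated virus carrying the gene for E-selectin, an adhesion molecule of activated endothelium. The control group received LacZ/AAV2/2, the same vector type carrying a bacterial enzyme. Each was injected into the muscle at 1e11 vector genomes, and both groups also received L-NAME, an inhibitor of nitric oxide synthesis, at 40 mg/kg. RNA of 3 mice was pooled for each group, and each pool was run on 2 arrays. The runs are repeats of the same RNA, so each group is 1 sample, the values hold no spread between animals, and no treatment effect can be tested. No group without ischemia or without L-NAME was on these arrays. None of 9 skeletal muscle genes looked for was on the array, so the tissue label could not be checked, and E-selectin itself was not measured.

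These ligands bind receptor tyrosine kinases, and receptor activation feeds the MAP kinase and PI3 kinase pathways. In injured muscle, HGF activates satellite cells, the muscle stem cells, IGF1 promotes their proliferation and differentiation, and FGF6 is an FGF made mainly in skeletal muscle. FGF1 and FGF2 are broad mitogens for endothelial cells, fibroblasts and myoblasts, and EGF and TGFα share the EGF receptor. None of 7 receptor genes that would pair with these ligands (*Fgfr1*, *Fgfr2*, *Fgfr4*, *Met*, *Igf1r*, *Egfr* and *Pdgfra*) was on the array.

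The deposited value of a gene is its ratio of E-sel/AAV2/2 over LacZ/AAV2/2 in a run, relative to *Gapdh*. The other 4 housekeeping genes were themselves above *Gapdh*, with mean ratios from 1.24 (*Hsp90ab1*) through 2.26 (*Gusb*) and 2.35 (*Actb*) to 3.45 (*B2m*). Relative levels below are therefore ratios divided by the geometric mean of the 5 housekeeping genes, which divides the *Gapdh*-based ratios by 1.87 on average, and values relative to *Gapdh* stand beside them. Fewer cells of a type and less RNA per cell cannot be told apart in pooled muscle RNA. The number of runs limits the precision of every value, and the depth of qPCR is not a count.

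Relative to the 5 housekeeping genes, *Tgfa* was the highest of the 10 genes in both runs and *Fgf6* the lowest in both runs. The other 8 lay between 0.578 and 1.11 on average. Of the 10, 3 were above 1, against 25.6% of the 78 array genes with both runs. No member was more than 2-fold higher (3.85% of array genes) and 1, *Fgf6*, was more than 2-fold lower (11.5%). The next member outside that limit was *Egf* at 0.578. Relative to *Gapdh* alone, 9 of 10 were above 1, against 82.1% of array genes, and 2, *Tgfa* and *Fgfr3*, were more than 2-fold higher (17.9%). *Fgfr3* was just inside the limit at 2.06 and *Igf1* just outside at 1.89. None was then more than 2-fold lower (1.28%). The members' median log2 ratio was -0.26 on the first scale and 0.64 on the *Gapdh* scale, beside -0.45 and 0.45 for the array. In both runs, 7 members were below 1 against the 5 genes (69.2% of array genes), and 8 were above 1 against *Gapdh* (69.2%).

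**Figure D1:**
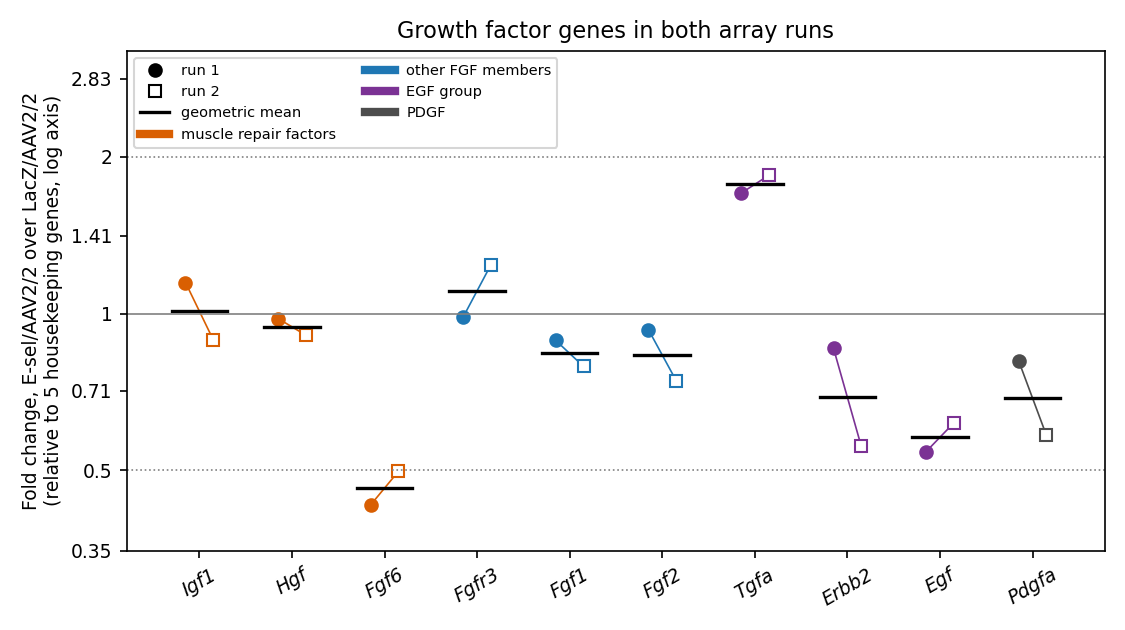
Fold change of E-sel/AAV2/2 over LacZ/AAV2/2 on a log axis for the 10 genes (x axis), relative to the mean of 5 housekeeping genes, with circles for run 1, squares for run 2, a bar for the geometric mean and colours for the 4 groups of genes; the dotted lines mark 2-fold. *Tgfa* lies at 1.70 and 1.84 and *Fgf6* at 0.429 and 0.497, outside the range of the other 8 genes in both runs.

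Among the EGF group, *Tgfa*, a membrane-anchored ligand of the EGF receptor, had deposited ratios of 3.39 in run 1 and 3.23 in run 2. Relative to the 5 housekeeping genes these were 1.70 and 1.84, a mean of 1.77-fold. It was the only member above 1 in both runs, against 12.8% of array genes, and ranked 9 and 4 of 78 in the runs. *Egf*, the founding ligand of the family, had a deposited ratio of 1.08 in both runs. Its relative levels were 0.543 and 0.616, with a mean of 0.578. *Erbb2* encodes a coreceptor that has no known ligand of its own and pairs with the other receptors of the EGF family. Its deposited ratios were 1.71 and 0.973, and its relative levels were 0.857 and 0.556, with a mean of 0.690. The runs of *Erbb2* differed by 0.63 log2 units, the widest gap among the 10 genes. *Tgfa* and *Egf*, which share a receptor, differed in this ratio, with *Tgfa* 3.06-fold over *Egf* and log2 differences of 1.65 and 1.58 in the runs. The lowest of the group was *Egf* in run 1 and *Erbb2* in run 2.

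Among the factors of muscle repair, *Igf1* had deposited ratios of 2.28 and 1.56. Relative to the 5 housekeeping genes it was 1.15 and 0.890, on either side of 1, with a mean of 1.01. *Hgf*, the ligand of the MET receptor, had deposited ratios of 1.95 and 1.59. Its relative levels of 0.978 and 0.909 averaged 0.943. Both genes were thus close to 1, and their order changed between the runs. *Fgf6* had deposited ratios of 0.853 and 0.871, the only member below *Gapdh* in both runs (17.9% of array genes were below *Gapdh* on average). Its relative levels were 0.429 and 0.497, with a mean of 0.462, and it ranked 77 and 63 of 78 in the runs. *Fgf6* lay below *Igf1* and *Hgf* in both runs, so the muscle repair factors did not form a set of like ratios.

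Among the other FGF members, *Fgfr3*, a receptor for several FGFs, had deposited ratios of 1.96 and 2.17. Its relative levels of 0.985 and 1.24 averaged 1.11, and its rank was 23 in run 1 and 6 in run 2. *Fgf1*, which binds all FGF receptors, had deposited ratios of 1.77 and 1.39. Its relative levels were 0.888 and 0.791, with a mean of 0.838. *Fgf2*, basic FGF, had deposited ratios of 1.85 and 1.30. Its relative levels were 0.932 and 0.743, with a mean of 0.832. The pair of ligands was below 1 in both runs and changed order between them. *Pdgfa*, a ligand of the PDGF receptors that acts on mesenchymal cells, had deposited ratios of 1.61 and 1.02. Its relative levels were 0.811 and 0.583, with a mean of 0.688, close to *Erbb2*.

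Differences between genes within a run do not depend on the reference. Of the 45 pairs among the 10 genes, 39 had the same order in both runs. The 6 that changed order were *Fgfr3* with *Igf1*, *Igf1* with *Hgf*, *Fgf1* with *Fgf2*, and the 3 pairs among *Erbb2*, *Pdgfa* and *Egf*. In the order of mean levels, 4 of 9 neighbouring pairs kept their order, namely *Tgfa* over *Fgfr3*, *Hgf* over *Fgf1*, *Fgf2* over *Erbb2* and *Egf* over *Fgf6*. The gap from *Tgfa* to *Fgfr3* was 0.79 and 0.57 log2 units in the runs, and that from *Egf* to *Fgf6* was 0.34 and 0.31.

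More than 2-fold separated 4 pairs in both runs. *Tgfa* was over *Fgf6* by 1.99 and 1.89 log2 units, a 3.84-fold difference, and over *Pdgfa* by 1.07 and 1.66. The third was *Tgfa* over *Egf*, given above. *Fgfr3*, the FGF receptor, was over *Fgf6*, an FGF ligand, by 1.20 and 1.32, a 2.39-fold difference. Across the 10 genes the runs correlated with Pearson's r = 0.834 and Spearman's rho = 0.903, and with r = 0.711 and rho = 0.867 over the 9 without *Tgfa*. These are descriptions across genes measured in the same pools on the same arrays, and genes are not independent replicates.

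**Figure D2:**
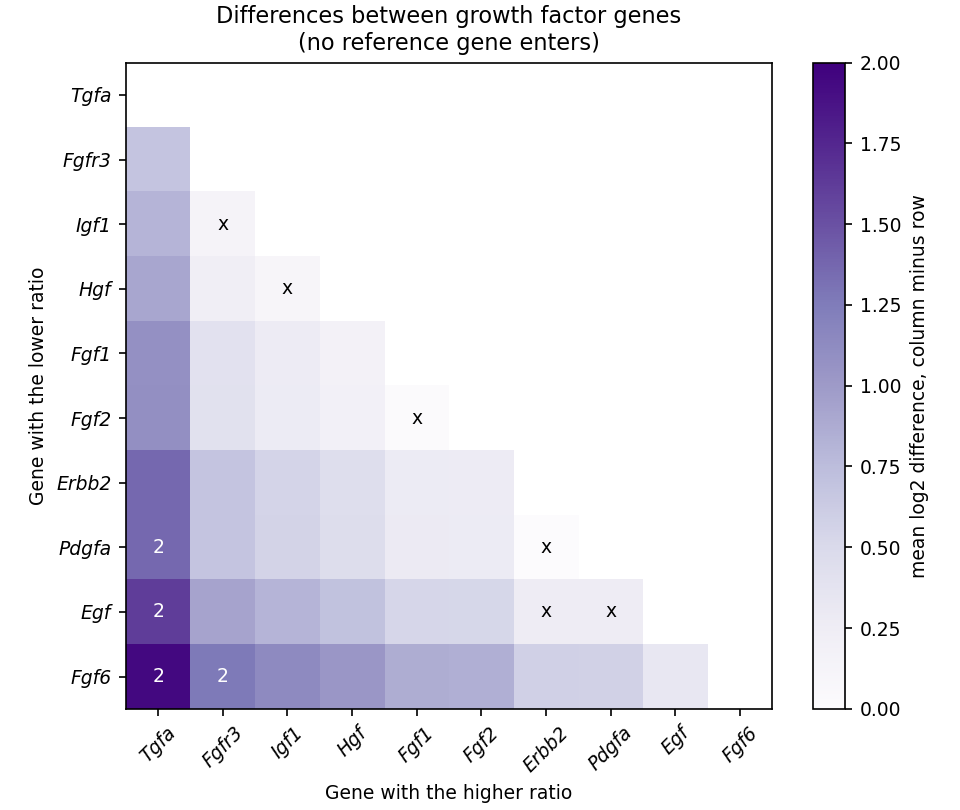
Mean log2 difference between the genes of each of the 45 pairs, with the gene of the higher mean ratio on the x axis, the gene of the lower one on the y axis and a darker shade for a larger difference. The cross marks the 6 pairs that changed order between runs, and the digit 2 marks the 4 pairs more than 2-fold apart in both runs, 3 with *Tgfa* on top and 1 with *Fgfr3*.

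Set against each other by their means, the EGF group was above the muscle repair factors by 0.24 and 0.22 log2 units in the runs. The other FGF members were above the muscle repair factors by 0.25 and 0.29. The EGF group differed from the other FGF members by -0.01 and -0.07. Averaged over the runs, these gaps were smaller than the spread within the groups. The members' means over the runs ranged over 1.61 log2 units in the EGF group, 1.13 in the muscle repair factors and 0.41 in the other FGF members. In run 1 alone the other FGF members lay closer together, from -0.172 to -0.022. That span was narrower than their gap of 0.25 above the muscle repair factors in that run.

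The signs rested on single genes. By medians, the EGF group was below the muscle repair factors, by -0.19 and -0.53. Without *Tgfa* the mean of the EGF group was -0.27 against the muscle repair factors and -0.54 against the other FGF members. Without *Fgf6* the EGF group was at -0.13 and the other FGF members at -0.09 against the muscle repair factors on average, the latter from -0.18 in run 1 and 0.0017 in run 2, where they were level. No order of the 3 groups held over these choices.

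The choice of reference moved all 10 genes together. Over 9 references (the 5 housekeeping genes together and singly, the array median, and 2 kinds of control well) *Tgfa* ranged from 0.959 to 3.31-fold and was above 1 under 8 of them. The exception was *B2m*, relative to which its runs were 1.01 and 0.908. Relative to *Actb*, which gave the next lowest values, 8 of 78 array genes were above 1, *Tgfa* among them. *Fgf6* ranged from 0.25 to 0.862 and was below 1 in both runs under all 9. *Egf* ranged from 0.313 to 1.08 and was above 1 under 2. The other members crossed 1 as well, with *Fgfr3* and *Igf1* above 1 under 6 references, *Hgf*, *Fgf1* and *Fgf2* under 5, and *Erbb2* and *Pdgfa* under 4. *Fgf6* was the one member of 10 whose mean kept to the same side of 1 under all 9 references, which 18 of 78 array genes (23.1%) also did. It was more than 2-fold lower under 4 references. Besides the 5 genes together these were *Actb*, *B2m* and *Gusb*, relative to which 29.5%, 70.5% and 23.1% of array genes were also more than 2-fold lower.

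**Figure D3:**
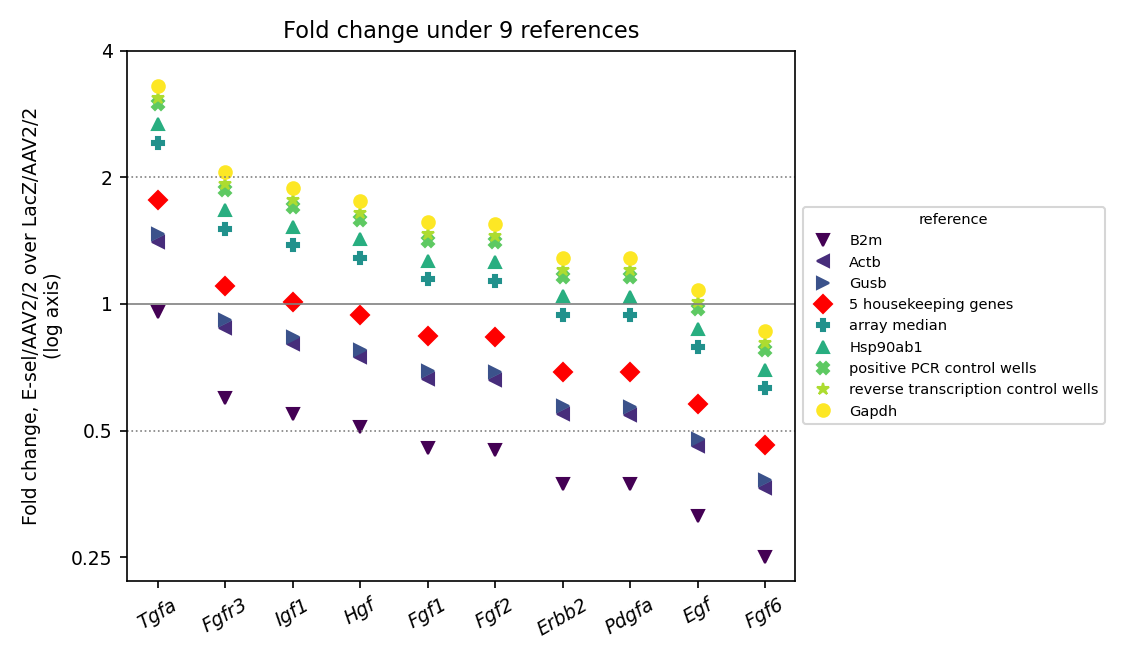
Fold change of E-sel/AAV2/2 over LacZ/AAV2/2 on a log axis for each of the 10 genes (x axis), as the geometric mean of the 2 runs, with one marker shape and colour for each of 9 references. All genes shift by the same factor between references, *Fgf6* lies below 1 under all 9 and *Tgfa* lies above 1 under 8.

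The error between runs was set out with limma on the paired log2 ratios, adjusted by Benjamini-Hochberg over the 78 genes with both runs. This compares 1 pool with 1 pool against the spread of repeat runs and is no test of the treatment. Under 5 of the 9 references (*B2m*, *Gusb*, *Hsp90ab1*, the array median and the reverse transcription control wells) limma gave all genes the same SE, so that there a p reads the size of the fold and not the gene's own gap between runs. Relative to the 5 housekeeping genes, no member passed an adjusted p of 0.05, nor did any array gene (0% in either direction). Without adjustment, limma placed *Tgfa* (1 member) above 1 and *Egf* and *Fgf6* (2 members) below it at p under 0.05, with 5 array genes higher (6.41%) and 27 lower (34.6%). *Tgfa* had a limma log2 ratio of 0.825 with an SE of 0.174 (Benjamini-Hochberg adjusted p = 0.0724, range over the 9 references 0.0390 to 0.912). *Fgf6* had a limma log2 ratio of -1.11 with an SE of 0.181 (Benjamini-Hochberg adjusted p = 0.0724, range 0.00516 to 0.929). The *Egf* log2 ratio was -0.79 (limma, Benjamini-Hochberg adjusted p = 0.0820). The other 7 members had limma adjusted p values from 0.170 for *Pdgfa* to 0.944 for *Igf1*. Taken against single references, *Fgf6* and *Egf* were lower at a limma adjusted p under 0.05 relative to *Actb* and *B2m*, *Fgf6* also relative to *Gusb*, and *Erbb2* and *Pdgfa* relative to *B2m* alone. The array genes lower by the same rule were 33.3% relative to *Actb*, 57.7% relative to *B2m* and 14.1% relative to *Gusb*, so the 2, 4 and 1 of 10 members were no larger a share than the background. Relative to *Gapdh*, *Tgfa* was the only member past the threshold, at 3.31-fold (limma, Benjamini-Hochberg adjusted p = 0.0390), with 4 array genes higher (5.13%) and 0 lower, and 4 members were higher without adjustment (21.8% of array genes). *Tgfa* was also past the threshold relative to the array median, at 2.42-fold (limma, Benjamini-Hochberg adjusted p = 0.0492), where 6.41% of array genes were higher, and under none of the other 7 references.

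Within the whole array, the mean ranks of the 10 genes ran from 5 to 74. *Tgfa* ranked 5 of 78, just below *Tymp*, thymidine phosphorylase, at 1.95 and above *S1pr1*, a sphingosine-1-phosphate receptor, at 1.55. *Fgfr3* ranked 14, below *Hif1a*, a subunit of the hypoxia-inducible factor, at 1.12. *Igf1* tied with *Pecam1*, an endothelial adhesion molecule, at 1.01. *Fgf6* ranked 74, above *Mmp14*, a membrane metalloproteinase, at 0.454. The median gap between runs was 0.27 log2 units for the 10 genes and 0.37 for the array, whose widest gap was 5.47. Relative to *Gapdh*, run 1 was above run 2 for 7 of the 10 genes and 66 of the 78 array genes.

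**Figure D4:**
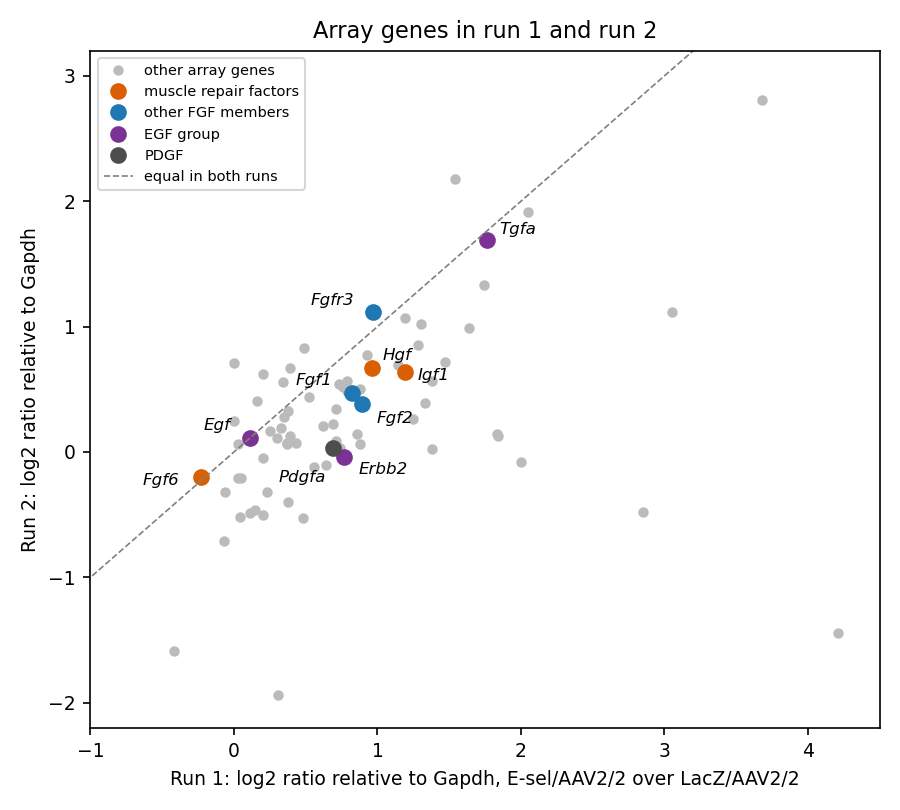
Log2 ratio relative to *Gapdh* in run 1 (x axis) and run 2 (y axis) for the array genes measured in both runs, with the 10 genes coloured by group and the dashed line marking equal values. *Tgfa* lies at 1.76 and 1.69 and *Fgf6* at -0.23 and -0.20, and most array genes lie below the line.

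The array also held ligands, receptors and coreceptors of the VEGF, angiopoietin and ephrin families, which signal through other receptor tyrosine kinases. Relative to the 5 housekeeping genes, 1 of these 16 genes was above 1 and 15 were below, 13 of them in both runs, with 1 more than 2-fold lower. Of all array genes, 74.4% were below 1, 69.2% were below it in both runs, and 11.5% were more than 2-fold lower. *Pgf*, placental growth factor, was the highest at 1.33 and *Flt1*, its receptor, the lowest at 0.483. The median log2 ratio of the 16 genes was -0.42, beside -0.26 for the 10 genes and -0.45 for the array. Relative to *Gapdh*, 14 of the 16 were above 1, against 82.1% of array genes. The 8 partner genes hold genes of the plasminogen system, integrins, the kinases *Akt1* and *Mapk14* and *Mdk*, and 6 had both runs. Relative to the 5 housekeeping genes, 1 of the 6 was above 1 and 5 were below. *Itgb3*, an integrin subunit, was the highest of the 6 at 1.20 and *Mdk*, a heparin-binding growth factor, the lowest at 0.481. Their median log2 ratio was -0.53. Relative to *Gapdh*, 5 of the 6 were above 1.

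Markers of other cell types were read relative to the 5 housekeeping genes. Of 8 endothelial genes 1 was above 1, *Pecam1* at 1.01, and 7 were below, against 74.4% of array genes. Only 4 of the 8 were below 1 in both runs, against 69.2% of array genes. The median of the 8 was 0.841, or 1.57 on the *Gapdh* scale, where 5 were above 1 (82.1% of array genes). Of 4 leukocyte-derived cytokine genes 3 had both runs. Relative to the 5 housekeeping genes, *Tnf* was at 2.11 (2.08 and 2.15 in the runs). *Ccl2* was at 1.14 (1.39 and 0.941) and *Il1b* at 0.685 (0.503 and 0.934). Relative to *Gapdh*, all 3 were above 1 on average. *Lep*, the adipocyte hormone leptin, was at 5.08 relative to the 5 housekeeping genes (6.44 and 4.01 in the runs). The part of cell composition in the ratios of the 10 genes was not tested.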

How the data were processed

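RT-qPCR was run by the authors on a 96-well SYBR Green array of 84 mouse angiogenesis genes, 5 housekeeping genes and control wells. RNA of 3 mice was pooled per group according to the labels, whereas the methods give a range of mice, and each pool was run on 2 arrays. The authors deposited a ratio per gene and run (E-sel/AAV2/2 over LacZ/AAV2/2, 2 to the power of minus delta-delta Ct), normalized to *Gapdh*, with E-sel/AAV2/2 run 1 set against LacZ/AAV2/2 run 1 and run 2 against run 2. A separate table of threshold cycles did not give these ratios (correlations from -0.118 to 0.118 over 12 ordered column pairs), so it was not used for named genes. Of 84 genes, 78 had both runs, 4 had 1 and 2 had none.

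Ratios were taken to log2, rounded to 2 decimals, and centred on the mean of the 5 housekeeping genes. The geometric mean over runs is given, and more than 2-fold counted as a call. As the groups are 1 pool each, limma (3.58.1, R 4.3.3) on the paired run ratios with Benjamini-Hochberg adjustment over 78 genes gave run error only. The fit was tried on simulated data in which the changed genes moved more than any member did relative to the 5 housekeeping genes. That trial says nothing about changes of the members' size. Tables were handled with pandas 2.3.3 under Python 3.11.15.

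The text names all 10 members, the housekeeping genes, the highest and lowest gene of each comparison list, rank neighbours and the cell type markers. Members, lists and comparisons were chosen with earlier results of these data known. Muscle genes and the 7 receptor genes looked for were chosen after the data were seen. The 10 symbols all match current RefSeq gene symbols. Alternatives were other references, each run alone, thresholds and robust variance.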

Additional observations from a re-analysis of the deposited data

How the results depend on the processing

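The reference decided most counts. Each count of the 10 members is given with that of the 78 array genes. With the 5 housekeeping genes as reference 3 members and 20 array genes were above 1, with 1 and 8 relative to *Actb*, 1 and 9 relative to *Gusb*, 0 and 4 relative to *B2m*, 9 and 64 relative to *Gapdh*, 9 and 62 relative to the reverse transcription control wells, 8 and 60 relative to the positive PCR control wells, 8 and 50 relative to *Hsp90ab1*, and 6 and 39 relative to the array median. More than 2-fold higher were 2 members and 14 array genes relative to *Gapdh*, and 1 member relative to *Hsp90ab1* (8 array genes), the array median (6), the reverse transcription control wells (11) or the positive PCR control wells (10), against 0 and 3 in the report. More than 2-fold lower were 2 members and 23 array genes relative to *Actb*, 2 and 18 relative to *Gusb*, 6 and 55 relative to *B2m*, and 0 members under the other 5 references with 1 or 2 array genes, against 1 and 9. A 1.5-fold threshold gave 1 member and 6 array genes higher and 2 and 29 lower, and a 3-fold threshold 0 and 2 lower. In each run alone 2 members were above 1, with 22 array genes in run 1 and 12 in run 2. Over the references, 76 of 80 values of single members moved by more than the SD between runs. With 2 runs a single run always lies within that SD of the mean, so leaving out a run says nothing about stability by this measure.

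The EGF group minus the muscle repair factors was 0.23 on the log2 scale, -0.36 by medians, 0.54 without *Egf*, -0.27 without *Tgfa*, 0.41 without *Erbb2*, -0.13 without *Fgf6*, 0.38 without *Hgf* and 0.43 without *Igf1*. The EGF group minus the other FGF members was -0.04, and -0.24 by medians, 0.27 without *Egf*, -0.54 without *Tgfa*, 0.14 without *Erbb2*, -0.11 without *Fgf1* or *Fgf2* and 0.093 without *Fgfr3*. The other FGF members minus the muscle repair factors was 0.27, and -0.12 by medians, 0.34 without *Fgf1* or *Fgf2*, 0.14 without *Fgfr3*, -0.09 without *Fgf6*, 0.42 without *Hgf* and 0.47 without *Igf1*. With 1 run left out the first ranged from 0.22 to 0.24, the second from -0.07 to -0.01 and the third from 0.25 to 0.29. The median log2 ratio of the other receptor tyrosine kinase genes was 0.48 relative to *Gapdh* and 0.028 relative to the array median, and that of the partner genes 0.37 and -0.08.

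The limma counts over the array, with the replicate block that the paired ratios carry, were 0 higher and 0 lower at an adjusted p under 0.05. They were 2 and 26 relative to *Actb*, 1 and 45 relative to *B2m*, 1 and 11 relative to *Gusb*, 5 and 2 relative to the array median, 2 and 9 with robust variance, and 5 and 27 without adjustment. They were 4 higher relative to *Gapdh*, 1 relative to *Hsp90ab1* or the reverse transcription control wells and 2 relative to the positive PCR control wells, each with 0 lower. *Fgf6* was 1 of the 9 lower genes with robust variance (limma, Benjamini-Hochberg adjusted p = 0.0453), and *Tgfa* was not among the 2 higher ones (adjusted p = 0.0536). A fit without the replicate block could not be made from the ratios. Another reference shifts every gene of a run by 1 amount, and which reference fits these pools best was not tested. As 1 pool stands for each group, none of these settings shows the spread between mice.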
